A study of Mus musculus with 84 samples.

Results

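Collagens are the structural proteins of the extracellular matrix, and the 44 collagen chain genes of the mouse were examined here for histone marks in adipocyte nuclei. Members were all protein-coding genes whose symbol reads Col, a number, the letter a and a number in the GENCODE annotation of the GRCm38 build. They made up 44 of the 21851 protein-coding genes with a coding start site, and were divided into 11 fibrillar chains, 8 basement membrane chains and 25 others. Fibrillar collagens (types I, II, III, V, XI, XXIV and XXVII) assemble into the fibres that give tissue its tensile strength. Basement membrane collagens (type IV with types XV and XVIII) form or anchor the sheet that surrounds each adipocyte and each vessel. The remaining chains build beaded filaments, decorate fibrils, form short-chain networks or span the cell membrane. In adipose tissue, collagens are made mostly by stromal cells, adipocytes themselves make basement membrane chains, and fibrosis in obesity involves deposition of collagens I, III and VI in particular.

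Peak lists of 84 CUT&Tag libraries from epididymal fat of male mice were available, an assay in which a tethered transposase cuts DNA next to an antibody-bound histone mark. All mice, controls included, were AdipoERCre x NuTRAP animals: a tamoxifen-inducible adipocyte Cre switched on a reporter that labels nuclei with biotin and ribosomes with GFP, and labelled nuclei were pulled down on streptavidin beads. Signal from a nucleus of another type carried along in the pull-down cannot be told apart from signal of adipocytes, and neither can fewer cells carrying a mark and less of the mark per cell. Tamoxifen was given to young mice before any high-fat diet (HFD), also in the chow controls. In the shorter cohort, C mice were on chow until 18 weeks of age and H mice of 18 weeks had 12 weeks of HFD, while CC_s mice were on chow until 26 weeks and HC mice of 26 weeks had 12 weeks of HFD followed by 8 weeks of chow. In the longer cohort, CC_l mice were on chow until 31 weeks and HH mice of 31 weeks had 25 weeks of HFD, while CCC mice were on chow until 39 weeks and HHC mice of 39 weeks had 25 weeks of HFD followed by 8 weeks of chow. H and HH are the obese groups, HC and HHC the weight-loss groups, and each was compared with the chow group of its own age.

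H3K4me3 (21 libraries) marks active promoters, H3K27me3 (20) is the Polycomb mark of silenced genes, H3K27ac (21) marks active promoters and enhancers, and H3K4me1 (22) marks enhancers and the flanks of promoters. There were 2 or 3 libraries per group and mark, labelled as biological replicates, so every p-value measures the spread between these few libraries. A promoter was the region within 2000 bp of any protein-coding start site of a gene, and it was called marked when a peak covered at least 1 bp of it. Promoter cover is the percent of those bases under peaks, and body cover the percent of the rest of the gene under peaks. Read depth was unknown, and a site without a peak is not shown to lack the mark. Groups said not to overlap are a description of the few libraries, since the share of all genes without overlap was not counted.

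The libraries held between 11249 and 46397 peaks, which together covered between 8.54 and 133 Mb of the genome. H libraries covered less than C libraries for 3 marks: 11 to 30.2 against 41 to 53.4 Mb for H3K4me3, 16.9 to 19.97 against 43 to 64.1 Mb for H3K27me3, and 9.60 to 24.4 against 42.8 to 49.0 Mb for H3K27ac. HC libraries covered 8.54 to 36.3 Mb for H3K27me3 against 43.2 to 60.5 Mb in CC_s. Adipocyte identity was checked on 8 marker promoters (Adipoq, Plin1, Lep, Cidec, Lipe, Pparg, Fabp4 and Lpl), of which 7 or 8 carried H3K4me3 in every library outside HHC, where 5 to 8 did. Of 8 macrophage promoters, H3K4me3 marked 0 to 4 in chow groups, 0 to 8 in H, 1 to 6 in HC, 7 to 8 in HH and 8 in all HHC libraries. Of 8 stromal progenitor promoters it marked 0 to 6 in chow groups, 0 to 5 in H, 2 to 5 in HC, 6 to 7 in HH and 4 to 7 in HHC. Of 6 promoters each in chow groups, HH and HHC it marked 0 to 4, 5 and 3 to 5 for endothelial, 0 to 5, 5 and 4 to 5 for mural, and 0 to 3, 2 and 2 to 3 for mesothelial cells, and of 6 endothelial promoters 0 to 5 in H and 1 to 4 in HC. For 4 H3K4me3 libraries of CC_l, HH and CCC the treatment field names a different group than the title, and the title was followed.

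The promoters of 3 collagens whose marks are described most closely are shown first, because they stand for different promoter types: Col3a1, with H3K27ac that was called lower in H, Col16a1, with H3K27ac that was called higher in HH and HHC, and Col11a1, with H3K27me3 that was called lower in H. Each line holds the 250 bases before the start site of the RefSeq gene (GRCm38.p6, plus strand), with the TATAAA box, the CCAAT box and the GGGCGG box in capitals. A box of the CCAAT type on the opposite strand reads ATTGG.
Col3a1, chr1:45311288-45311537: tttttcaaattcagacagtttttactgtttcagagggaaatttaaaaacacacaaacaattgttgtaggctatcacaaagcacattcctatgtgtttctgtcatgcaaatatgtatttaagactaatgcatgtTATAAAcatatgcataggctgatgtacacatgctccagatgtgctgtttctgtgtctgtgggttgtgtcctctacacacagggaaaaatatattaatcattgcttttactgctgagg
Col16a1, chr4:130047590-130047839: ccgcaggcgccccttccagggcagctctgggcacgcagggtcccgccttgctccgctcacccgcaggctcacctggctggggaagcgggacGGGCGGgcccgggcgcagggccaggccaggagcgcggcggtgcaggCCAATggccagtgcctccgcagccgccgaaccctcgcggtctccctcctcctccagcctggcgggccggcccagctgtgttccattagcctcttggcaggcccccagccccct
Col11a1, chr3:114030290-114030539: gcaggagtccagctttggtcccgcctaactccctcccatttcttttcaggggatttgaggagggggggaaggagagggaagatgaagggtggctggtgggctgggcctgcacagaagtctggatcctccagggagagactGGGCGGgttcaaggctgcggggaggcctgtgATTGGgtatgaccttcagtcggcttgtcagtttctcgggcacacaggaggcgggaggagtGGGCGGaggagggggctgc

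These promoters differ in base composition as plainly as in marks. The Col3a1 window holds 0 CpG and 1 TATAAA at position -117, the Col16a1 window 21 CpG with a GGGCGG at -159 and a CCAAT at -113, and the Col11a1 window 7 CpG with GGGCGG at -110 and -19 and a CCAAT on the opposite strand at -79. RefSeq promoters of 300 bases (250 before and 50 after the start) were available for 35 of the 44 collagens. They held a median of 12 CpG against 15 over 16515 protein-coding genes. On either strand, CCAAT was found in 37.1% of collagen promoters against 42.1% of all, GGGCGG in 62.9% against 51.0%, and TATAAA in 14.3% of both. Such matches are descriptions of sequence and not of binding.

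Collagen promoters were richer in H3K27me3 and poorer in H3K4me3 and H3K27ac than the promoters of all genes. H3K27me3 marked 48.8% ± 11.9 of collagen promoters (mean ± SD over 20 libraries, 22.7 to 70.5%) against a mean of 18.4% of all genes. H3K4me3 marked 45.5% ± 17.2 (n = 21, 11.4 to 75.0%) against 57.7%, and H3K27ac 24.6% ± 8.79 (n = 21, 13.6 to 38.6%) against 40.7%. H3K4me1 marked 30.2% ± 14.6 (n = 22, 11.4 to 56.8%) against 24%. Among marked promoters, the median width of the widest peak averaged 2303 bp at collagens against 1815 bp over all genes for H3K27me3 and 1830 against 2212 bp for H3K4me3. For H3K27ac the widths were 2249 and 1665 bp, and for H3K4me1 2502 and 2012 bp. Body cover averaged 4.84% of collagen genes against 4.04% of all genes for H3K27me3, 1.14% against 3.99% for H3K4me3, 2.61% against 4.08% for H3K27ac and 4.16% against 5.37% for H3K4me1.

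The classes carried different marks. Among basement membrane chains, Col4a1 and Col4a2, Col4a3 and Col4a4, and Col4a5 and Col4a6 share promoter windows, so the chains of a pair are not separate observations. H3K4me3 marked 70.8% of basement membrane, 59.3% of fibrillar and 31.2% of other collagen promoters on average, and H3K27ac marked 50.6%, 31.6% and 13.1% in the same order. H3K4me1 followed with 47.2%, 36.4% and 22%. H3K27me3 was spread more evenly, at 41.9% of basement membrane, 50.9% of fibrillar and 50% of other promoters. Only Col5a1, Col4a1 and Col4a2 had H3K4me3 in every library, and only Col4a1, Col4a2 and Col15a1 had H3K27ac in every library. H3K27me3 was found in all 20 libraries at 6 promoters (Col2a1, Col27a1, Col13a1, Col14a1, Col19a1 and Col26a1), that is 13.6% of collagens, against 4.02% of all genes. No collagen had H3K4me1 in every library, and 9, 7, 17 and 12 collagens had no peak in any library of H3K4me3, H3K27me3, H3K27ac and H3K4me1.

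**Figure D1:**
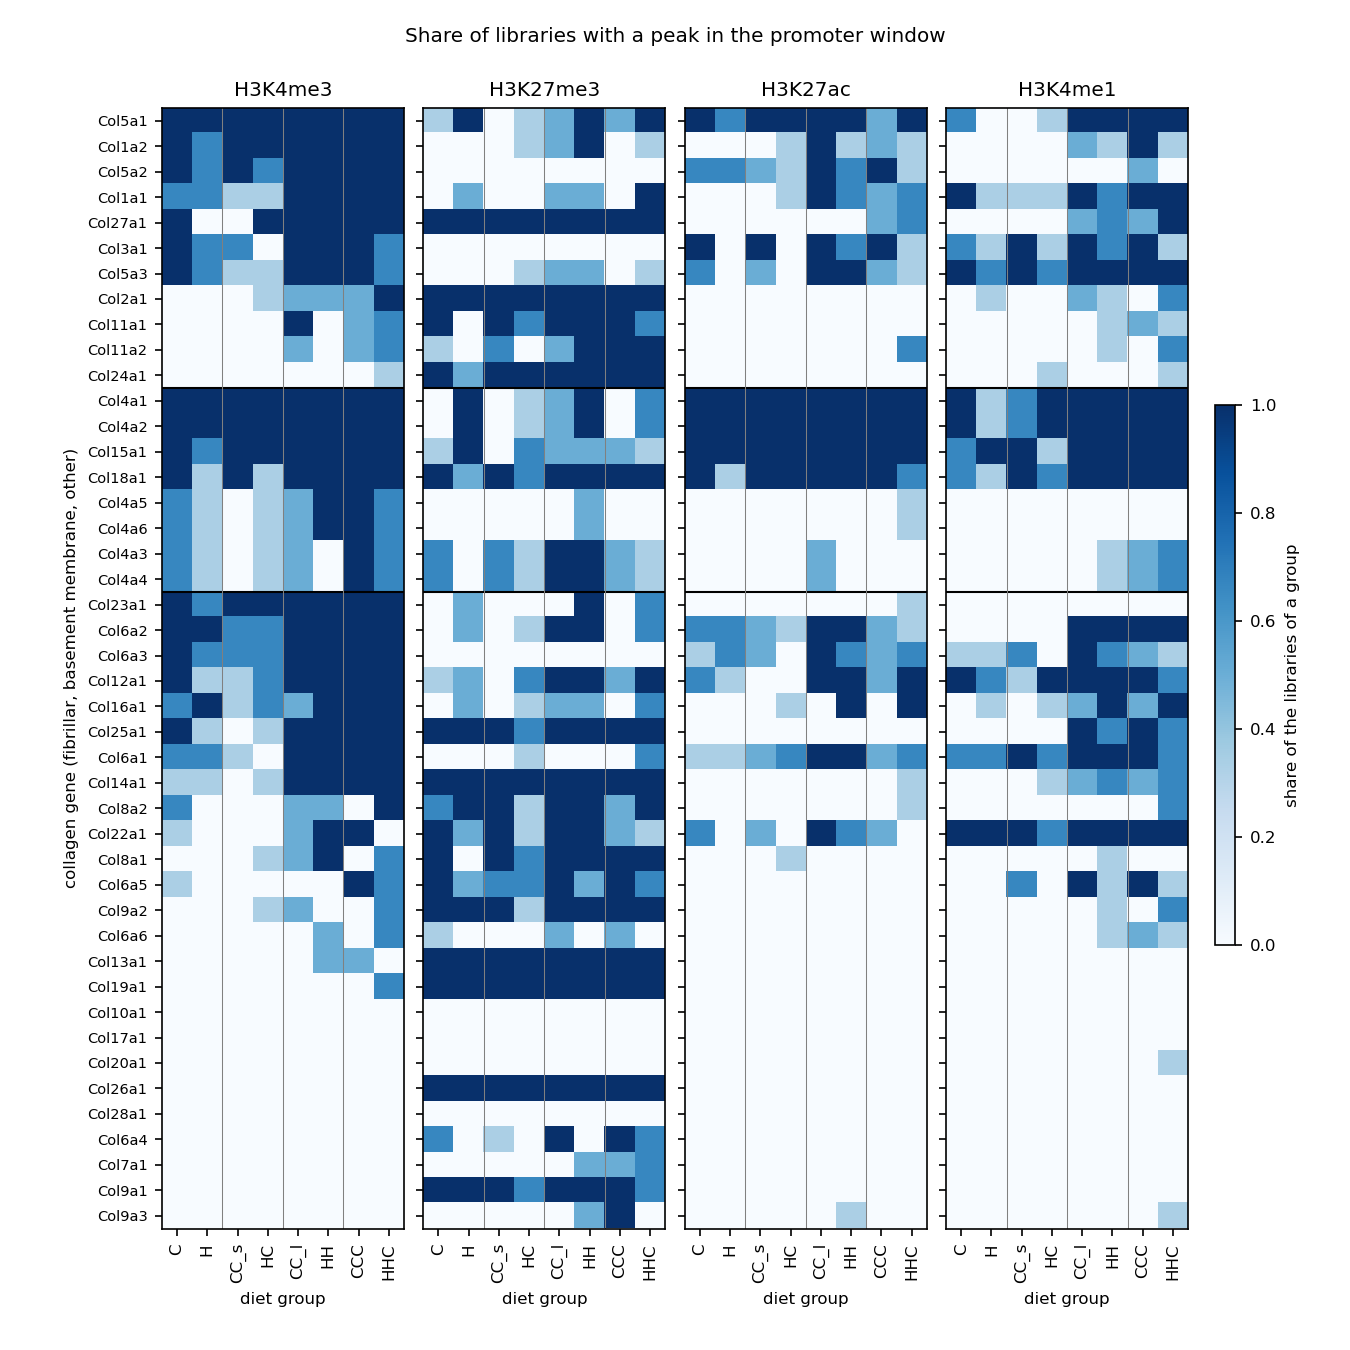
Share of libraries (colour, from 0 to 1) in which each of the 44 collagen promoters (vertical axis, lines separate the fibrillar, basement membrane and other classes) carried a peak, for each diet group (horizontal axis) and mark (panels). Col4a1 and Col4a2 are marked in all H3K4me3 and H3K27ac libraries, and Col2a1 and Col26a1 in all H3K27me3 libraries.

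By the mark present in at least 50% of libraries, 15 collagens carried H3K4me3 alone, 15 carried H3K27me3 alone, 6 carried both and 8 neither. As shares these are 34.1%, 34.1%, 13.6% and 18.2%, against 52.4%, 10.5%, 6.03% and 31.1% of all genes. Col3a1, Col5a2, Col1a2, Col5a3 and Col1a1 were the fibrillar chains with H3K4me3 alone, while Col11a1, Col24a1, Col2a1 and Col11a2, chains known best from cartilage and bone, carried H3K27me3 alone. Col5a1 and Col27a1 carried both. Among basement membrane chains Col15a1, Col4a1, Col4a2, Col4a5 and Col4a6 had H3K4me3 alone, Col18a1 both, and Col4a3 and Col4a4, chains of kidney and lung basement membranes, H3K27me3 alone. Of the others, Col6a1, Col6a2, Col6a3, Col16a1 and Col23a1 had H3K4me3 alone, and Col12a1, Col14a1 and Col25a1 had both. Among collagens with a RefSeq promoter the median CpG count was 13 for the 13 with H3K4me3 alone, 20.5 for the 4 with both, 12 for the 11 with H3K27me3 alone and 5 for the 7 with neither.

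The marks were also spread unequally over gene bodies. H3K27me3 covered 33% of the Col27a1 body on average over 20 libraries (96.6th percentile of all genes) and 27.1% of Col2a1 (95.6th), followed by Col9a2 at 23.7%. H3K27ac covered most of Col4a2 (23.2%), Col15a1 (20.2%) and Col4a1 (19.6%), and H3K4me1 covered 32.8%, 32.4% and 29.6% of the same genes. At promoters, 10 of the 44 collagens lay above the 95th percentile of all genes for H3K27me3 cover, led by Col2a1 at 90.4%, Col26a1 at 84.2% and Col13a1 at 79.5%. For H3K4me3 and H3K27ac 2 did, and for H3K4me1 5.

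Over all 44 promoters, the share marked differed with diet by more than the spread in 3 of the comparisons. For H3K4me3 the difference of H from C was -17.4 percentage points, where the spread within groups (pooled SD) was 10.7 points and the same difference over all genes was -8.01 points. HH and CC_l differed by 1.14 points. For H3K27ac the difference was -7.58 points in H and -4.55 in HH (pooled SD 7.32), against -7.39 and -0.448 points over all genes. For H3K27me3 it was -1.89 points in H and 7.95 in HH (pooled SD 8.41), against 0.045 and 0.474 over all genes. After weight loss the difference for H3K27me3 in HHC, 8.71 points, exceeded the spread, where the difference over all genes was 3.41 points. The widths changed more: at collagens, H3K27ac peaks of H differed from those of C by -2.3 on the log2 scale (pooled SD 0.61), against -1.35 over all genes, while the difference was 0.09 in HH. For H3K27me3 the width differed by -1.55 in the H group and -0.42 in the HH group, and after weight loss by -1.47 (HC) and -0.30 (HHC), with a pooled SD of 0.54. The values over all genes were -1.46, -0.28, -1.17 and 0.23. H3K4me3 widths went opposite ways in the cohorts, by -0.98 in H and 0.77 in HH (pooled SD 0.32), against -0.80 and 0.35 over all genes. H3K4me1 widths differed by -1.18 in H and 0.33 in HH (pooled SD 0.74), against -0.55 and 0.07 over all genes.

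**Figure D2:**
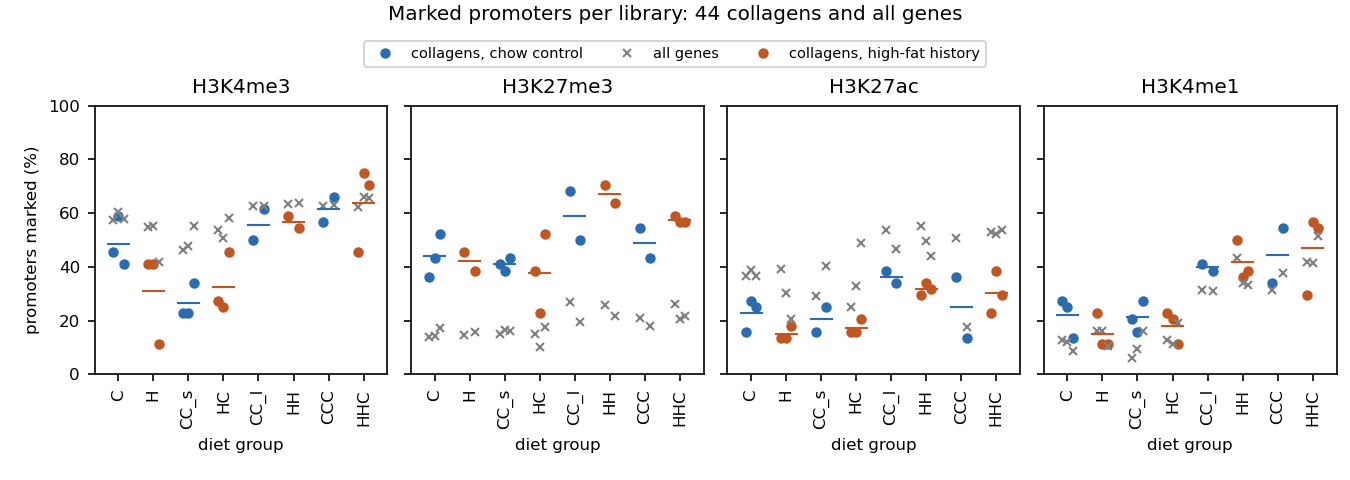
Percent of the 44 collagen promoters marked in each library (points, blue for chow and orange for HFD groups) by diet group (horizontal axis) and mark (panels), with the percent of all genes as grey crosses. H3K27me3 points lie above their crosses and H3K27ac points below them in every library, and H3K4me3 is lowest in a library of H at 11.4%.

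A promoter was counted as gained where every library of the diet group and no library of its control had a peak, and lost in the reverse case. By this rule H3K4me3 at Col27a1 was lost in H, where 1.71% of all promoters were gained or lost, and gained in HC (0.339% of all promoters). It was lost at Col11a1 in HH (1.8%), gained at Col8a2 in HHC and lost at Col22a1 in HHC (1.76%). H3K27me3 was gained at the shared promoter of Col4a1 and Col4a2 and lost at Col11a1 and Col8a1 in H. That is 4 of 44 collagens, with the shared promoter counted for both chains, against 2.9% of all promoters. It was called at 0 collagens in HC (0.993%), gained at Col23a1 and lost at Col6a4 in HH (1.99%), and gained at Col1a1 and lost at Col9a3 in HHC (2.1%). H3K27ac at Col3a1 was lost in H (2.08%) and in HC (0.796%), and at Col16a1 gained in HH (0.851%) and in HHC (2.38%). H3K4me1 gave 0 gains or losses at collagens in H, HC, HH and HHC, against 0.911%, 0.316%, 2.7% and 4.47% of all promoters.

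Promoter cover was then tested with limma over all genes of a mark, with Benjamini-Hochberg adjustment and a threshold of 0.05. In H, H3K4me3 was lower at 4 of 32 collagens tested (14.9% of all genes called), H3K27me3 at 4 of 35 (5.65%) and H3K27ac at 3 of 17 (3.46%). The H3K27ac count holds both Col4a1 and Col4a2, which share a promoter. H3K4me1 was called at 0 of 26 in H (0%), with 1 of 26 at an unadjusted p below 0.05. In HC, H3K27me3 was lower at 3 of 35 (5.36%), and 0 collagens were called for H3K4me3 (0%), H3K27ac (0%) and H3K4me1 (0%), where 2, 3 and 0 had an unadjusted p below 0.05. In HH, 1 of 32 was higher for H3K4me3 (1.32%) and 1 of 17 for H3K27ac (0.221%). In HH 0 of 35 were called for H3K27me3 (0.624%) and 0 of 26 for H3K4me1 (2.88%), with 3 and 0 at an unadjusted p below 0.05. In HHC the counts were 1 of 32 for H3K4me3 (3.72%), 0 of 35 for H3K27me3 (0.802%, with 7 at an unadjusted p below 0.05), 2 of 17 for H3K27ac (5.98%) and 2 of 26 for H3K4me1 (14.8%). The median difference in H was -13.1 points over tested collagens against -16.9 over all genes for H3K4me3, -13.6 against -3.70 for H3K27me3, and -19.4 against -14.1 for H3K27ac.

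Body cover was tested in the same way. In H, 1 of 38 collagens was called for H3K27me3 (1.12% of all genes), and 0 of 24 for H3K4me3 (0.336%), 0 of 25 for H3K27ac (0.0536%) and 0 of 28 for H3K4me1 (0%), with 2, 2 and 0 at an unadjusted p below 0.05 in limma. In HC, 1 of 38 was called for H3K27me3 (0.998%) and 0 for H3K4me3 (0%), H3K27ac (0%) and H3K4me1 (0%), with 0 of each at an unadjusted p below 0.05. In HH, 2 of 24 were called for H3K4me3 (5.73%), and 0 for H3K27me3 (0.895%), H3K27ac (0.676%) and H3K4me1 (1.52%), with 8, 0 and 1 at an unadjusted p below 0.05. In HHC, 4 of 24 were called for H3K4me3 (21.8%), 3 of 38 for H3K27me3 (3.63%), 0 of 25 for H3K27ac (12.7%, with 3 at an unadjusted p below 0.05) and 1 of 28 for H3K4me1 (21.4%). The comparisons with a call hold 1 to 4 collagens each, and nothing about collagens as a group was read from them. When the covered length of each library entered the limma fit as a covariate, none of the 12 collagen calls in H (adjusted p = 0.334 to 0.926) and none of the 4 in HC (0.12 to 0.658) passed. For collagens, other alternatives are named beside a call only where they ended it: a log2 scale (after adding 1 percent), promoter windows of 500 bp, testing every gene covered in 1 library or more, keeping the same number of peaks per library, keeping the upper 50% of peaks, counting promoter windows as body, and groups from the treatment field. An alternative that took a collagen below the filter of 3 covered libraries gave no result for it. For single genes of the other lists no alternative was examined. A replicate block in the fit is given here only. In H it ended the calls of Col3a1 H3K4me3 (limma adjusted p = 0.0511) and of Col27a1 H3K27me3 at promoter and body (0.0567 and 0.081). In HC it ended those of H3K27me3 at the Col26a1 and Col8a1 promoters (0.065 and 0.0659). In HHC it ended those of Col3a1 H3K27ac and Col5a1 body H3K27me3 (0.0601 and 0.05).

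Type I collagen, the main protein of fibres, is built from the chains of Col1a1 and Col1a2. H3K4me3 marked the Col1a1 promoter (gene at chr11:94936224-94953042) in 15 of 21 libraries and the Col1a2 promoter in 20 of 21. At Col1a2, H3K4me3 covered 49.7%, 44.8% and 54.8% of the promoter in C, 22.6%, 24.7% and 0% in H, 16.3%, 16% and 42.6% in CC_s and 27.1%, 16.1% and 23.5% in HC. It covered 40.6% and 70.2% in CC_l, 51.3% and 76.9% in HH, 68.9% and 61.2% in CCC and 20.9%, 76% and 79.1% in HHC. All H libraries lie below all C libraries at Col1a2, while the other groups overlap, and no Col1a2 difference was called. H3K27ac at Col1a1 was found in 8 of 21 libraries, 7 of them in the longer cohort: 48% and 58.7% of the promoter in CC_l, 34.5%, 18.1% and 0% in HH, 61% and 0% in CCC, 0%, 41.5% and 34.5% in HHC, and otherwise only 14.1% in 1 HC library.

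With groups from the titles, H3K4me3 covered more of the Col1a1 body in HH and HHC than in their controls, and H3K4me1 was found there in HHC alone. H3K4me3 covered 2.75% and 2.15% of the Col1a1 body in HH against 0% in both CC_l libraries, and 4.14%, 4.87% and 1.87% in HHC against 0.439% and 0% in CCC. The groups do not overlap in either comparison. The differences were 2.45 points (SE 0.625, adjusted p = 0.0325, limma) and 3.41 points (SE 0.571, adjusted p = 0.000824, limma). H3K4me1 covered 4.20%, 7.03% and 5.08% of the body in HHC and 0% in each of the other 19 libraries, a difference of 5.44 points (SE 0.552, limma adjusted p = 7.87e-06). This SE is pooled over all 8 groups, of which only HHC lies above 0%. For H3K4me1 this body passed the filter of 3 covered libraries through HHC alone, so its p-value is no independent support. Without any 1 HHC library it fell below that filter and was not tested. The covered bases lie directly behind the promoter window, as the map of peaks at Col1a1 shows, and with the promoter window counted as part of the body none of these calls held (limma adjusted p = 0.346, 0.626 and 0.0515). Taking the groups from the treatment field turned the HH difference to -1.08 points and left the H3K4me3 difference in HHC uncalled (adjusted p = 0.116), as did equal peak numbers (0.0796), and the HH call was lost without CC_l replicate 1 or 2 or HH replicate 2 (limma adjusted p = 0.116, 0.0839 and 0.13), with equal peak numbers (0.148) and with covered length as a covariate (0.0557). Macrophage promoters with H3K4me3 numbered 8 of 8 in HHC against 2 to 4 in CCC and stromal progenitor promoters 4 to 7 against 5 to 6. Endothelial promoters numbered 3 to 5 of 6 against 1, and for H3K4me1 1 to 5 against 0, and the part of these cell types in the result was not tested.

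**Figure D3:**
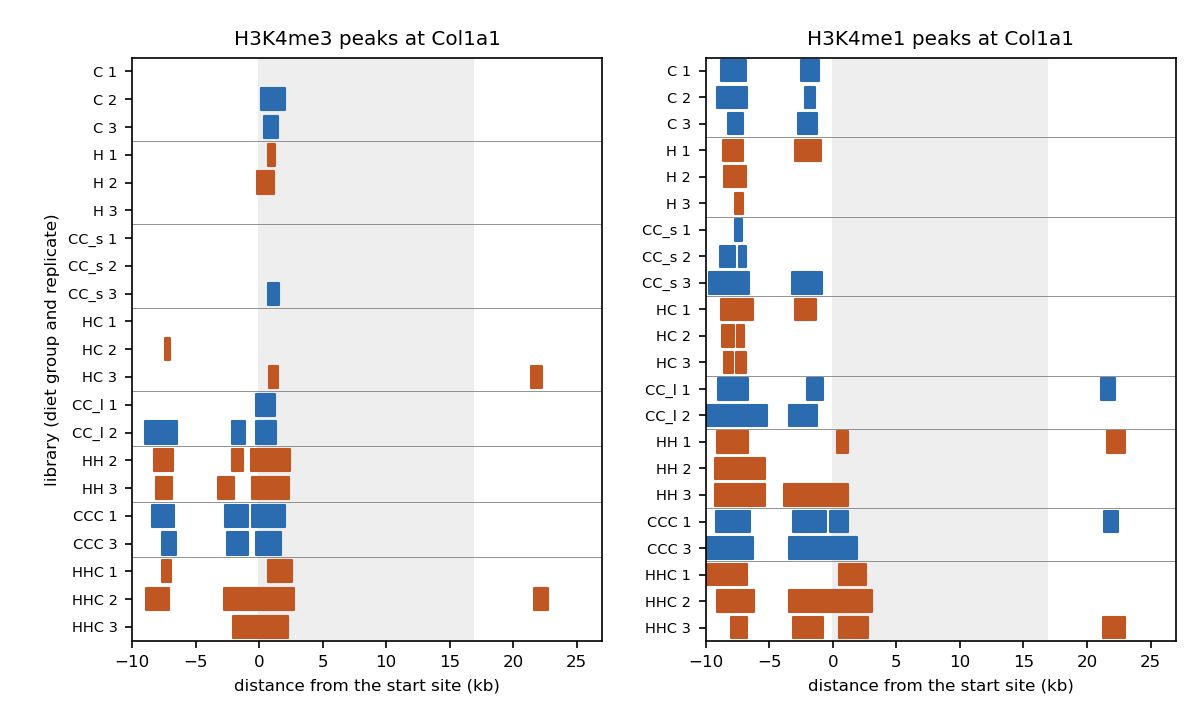
H3K4me3 and H3K4me1 peaks (bars) of each library by distance from the Col1a1 start site in kb (horizontal axis), with the gene in grey, libraries ordered by diet group, and blue for chow and orange for HFD groups. The promoter window ends 2000 bp on either side of 0, and H3K4me1 peaks reach beyond the promoter window into the gene in the 3 HHC libraries alone, covering 4.20 to 7.03% of the body.

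H3K27me3 at Col1a1 was found in every HHC library (90.5%, 27.2% and 28.8% of the promoter) and in neither CCC library. It was also found in 1 library each of H (31.8%), CC_l (100%) and HH (69.8%), so a peak there occurred in chow controls too. At Col1a2 H3K27me3 was found in 5 of 20 libraries, among them CC_l replicate 1 at 68.7% and both HH libraries at 52.5% and 37.3%. Neither was called by limma.

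Col3a1 (chr1:45311538-45349706), the chain of type III collagen that forms fibres together with type I, had less H3K27ac in H than in C and in HHC than in CCC. H3K27ac covered 55.4%, 61.6% and 86.1% of its promoter in C and 0% in all 3 H libraries. It covered 27.1% and 39.9% in CC_s and 0% in all 3 HC libraries. In the longer cohort it covered 68.5% and 42.9% in CC_l, 0%, 1.37% and 37.7% in HH, 87.3% and 38.6% in CCC, and 0%, 30.2% and 0% in HHC. Diet and chow libraries do not overlap in any of the 4 comparisons, which have no library in common, and how many other genes show this was not counted. The limma difference was -67.7 points in H (SE 13.6, adjusted p = 0.0215) and -52.9 in HHC (SE 15.2, adjusted p = 0.0447), while -33.5 in HC (adjusted p = 1) and -42.7 in HH (adjusted p = 0.521) were not called, and averaged over both obese comparisons it was -55.2 points (SE 10.2, adjusted p = 0.0341). The average over both obese comparisons was not run with the alternatives. The call in H was lost without any 1 C library, without H replicate 2 or without H replicate 3 (limma adjusted p = 0.0645 to 0.119), and that in HHC without CCC replicate 1, HHC replicate 1 or HHC replicate 3 (0.104 to 0.135). The call in HHC was also lost with covered length as a covariate (limma adjusted p = 0.0618), on the log2 scale (0.183), with 500 bp windows (0.249) and with every gene covered in 1 library tested (0.0587), and CCC replicate 3 covered only 20.9 Mb for this mark.

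H3K4me3 at Col3a1 went the same way in H. It covered 63.8%, 81.2% and 63.1% of the promoter in C and 32.6%, 23.6% and 0% in H, a difference of -50.6 points (SE 16.1, limma adjusted p = 0.0427), with no overlap. The call was lost without C replicate 1, 2 or 3 or H replicate 3 (limma adjusted p = 0.0644 to 0.221), on the log2 scale (0.189), with 500 bp windows (0.161) and with every gene covered in 1 library tested (0.0556). In CC_s it covered 22.9%, 0% and 72.1% and in HC 0% in every library, in CC_l 49.1% and 68.7%, in HH 38.5% and 30.4%, in both CCC libraries 68% and in HHC 0%, 73.8% and 57.1%. HH lies below CC_l without overlap, whereas HHC and CCC overlap, and none of these was called. H3K27me3 was not found at Col3a1 in any of 20 libraries.

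**Figure D4:**
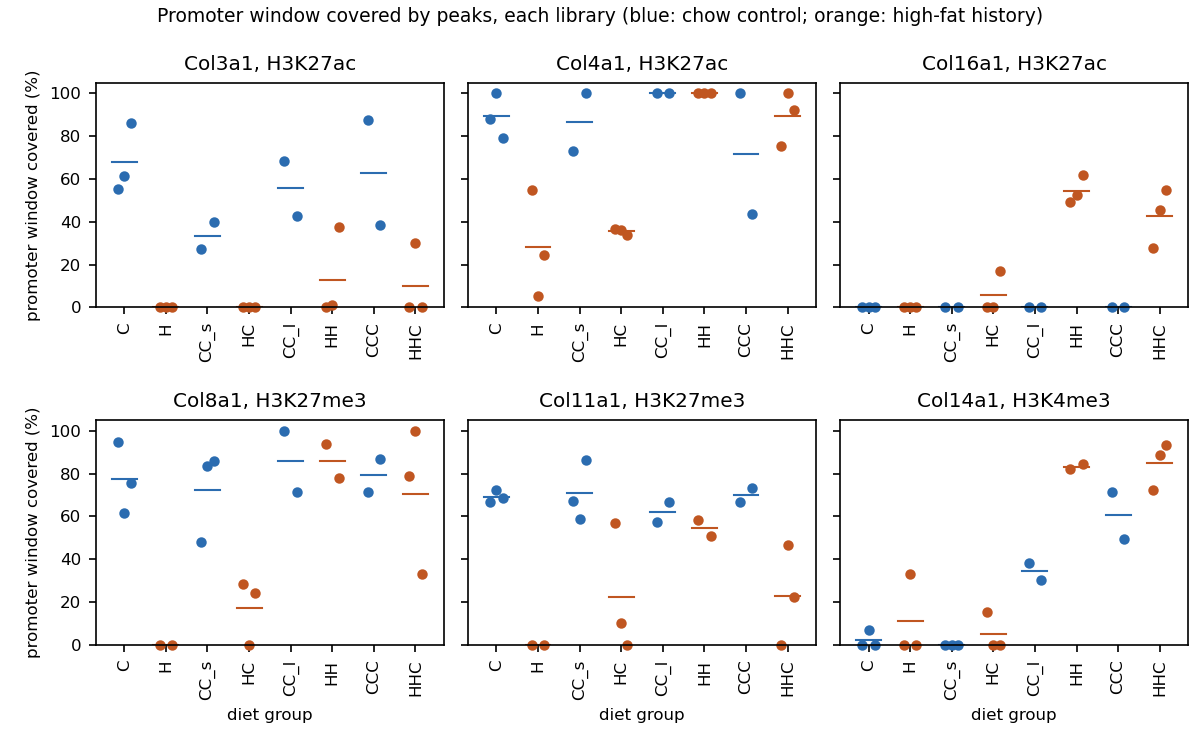
Percent of the promoter covered by peaks in each library (points; bars are group means) by diet group (horizontal axis), blue for chow controls and orange for groups with HFD, for H3K27ac at Col3a1, Col4a1 and Col16a1, H3K27me3 at Col8a1 and Col11a1, and H3K4me3 at Col14a1. H3K27ac at Col3a1 is 0% in all H and HC libraries, and at Col16a1 it lies between 27.7 and 61.9% in HH and HHC and at 0% in every chow library.

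Type V collagen, which starts and limits the growth of type I fibrils, is encoded by Col5a1, Col5a2 and Col5a3. Col5a1 had H3K4me3 in all 21 libraries, covering 35.9% to 100% of its promoter. Of 20 H3K27me3 libraries, 11 marked it. H3K27me3 covered 11.1%, 2.07% and 9.84% of the Col5a1 body in HHC against 0.821% and 0% in CCC, a difference of 7.25 points (SE 1.88, limma adjusted p = 0.0488) without overlap. The call was lost without CCC replicate 1 or 3 or HHC replicate 1 or 3 (limma adjusted p = 0.0986 to 0.231), and also with equal peak numbers (0.119), the upper 50% of peaks (0.115), covered length as a covariate (0.0703), every gene covered in 1 library tested (0.0944), the log2 scale (0.0605) and promoter windows counted as body (0.0514). Of 12 alternatives only 1 kept it. Col5a2 had H3K4me3 in 19 of 21 libraries and no H3K27me3, and Col5a3 had H3K4me3 in 15 of 21.

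Col11a1 (chr3:114030540-114220718), a chain of the thin fibrils of cartilage, carried H3K27me3 in 16 of 20 libraries. It covered 66.6%, 72.3% and 68.8% of the promoter in C and 0% in both H libraries, a difference of -69.2 points (SE 15.7, limma adjusted p = 0.0208). In CC_s it covered 67%, 59% and 86.2% and in HC 56.8%, 10.4% and 0%, in CC_l 57.6% and 66.6%, in HH 58.2% and 50.7%, in CCC 66.6% and 73.2%, and in HHC 0%, 46.6% and 22.6%. Libraries after weight loss lie below their controls without overlap, and averaged over HC and HHC the difference was -47.6 points (SE 10.6, limma adjusted p = 0.0183), though neither comparison was called alone. This average was not run with the alternatives. The call in H was lost without H replicate 1 or 2 or C replicate 2 or 3 (limma adjusted p = 0.0527 to 0.173). Col2a1, the chain of type II collagen of cartilage, kept H3K27me3 in all 20 libraries at 20.8% to 100% of its promoter, and Col24a1 had it in 19.

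Col27a1 (chr4:63214004-63334991), a fibrillar chain of cartilage, had the highest mean H3K27me3 body cover of the collagens. This cover was lower in every diet group than in its control. H3K27me3 covered 31.9%, 44% and 33.6% of the gene body in C and 2.84% and 0.364% in H. It covered 53.8%, 42.8% and 52.4% in CC_s and 17.1%, 2.38% and 4.25% in HC. In the longer cohort it covered 54.3% and 63.9% in CC_l, 39.8% and 40.5% in HH, 60.2% and 57.8% in CCC, and 12.5%, 27.9% and 17.3% in HHC. Every diet library lies below every library of its control in all 4 comparisons. How many other genes do so was not counted, and H and HC libraries covered less of the genome for this mark than their controls. The differences were -34.9 points in H (SE 7, limma adjusted p = 0.0355), -41.8 in HC (SE 6.26, limma adjusted p = 0.0071), a smaller -18.9 in HH (SE 7.67, limma adjusted p = 0.325, unadjusted p = 0.0271) and -39.7 in HHC (SE 7, limma adjusted p = 0.00859). Averaged over the cohorts they were -26.9 points in obese mice (SE 5.19, limma adjusted p = 0.0194) and -40.8 after weight loss (SE 4.69, limma adjusted p = 0.00039), and no difference between cohorts was called (limma adjusted p = 0.926 and 0.928). These averages were not run with the alternatives.

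The difference at Col27a1 was widest between 20 and 60 kb behind the start. Between 20 and 40 kb, H3K27me3 covered on average 64.9% in C, 0% in H, 76.2% in CC_s, 10.9% in HC, 79.9% in CC_l, 56.8% in HH, 77.9% in CCC and 11.6% in HHC. Between 40 and 60 kb the means were 56.7%, 0%, 80.3%, 11.2%, 83.7%, 34.3%, 86.7% and 14.3% in the same order. Between 100 and 120 kb no group exceeded 9.24%. The longest single peak on Col27a1 was 12.6 kb, in a CC_l library, against 1.79 kb at most in H and 2.04 kb in HC. H3K27me3 libraries of HHC covered more of the genome (77.9 to 82.9 Mb) than those of CCC (61.4 to 70.4 Mb), and the median body difference over all genes in HHC was 1.15 points. The call in HHC held with covered length as a covariate at -39.9 points (limma adjusted p = 0.0124) and was lost without CCC replicate 1 (0.0791) and on the log2 scale (0.158). The call in HC was lost without HC replicate 2 (limma adjusted p = 0.0517), and that in H without any 1 of its 5 libraries (0.0597 to 0.303) or with the upper 50% of peaks (0.0712).

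**Figure D5:**
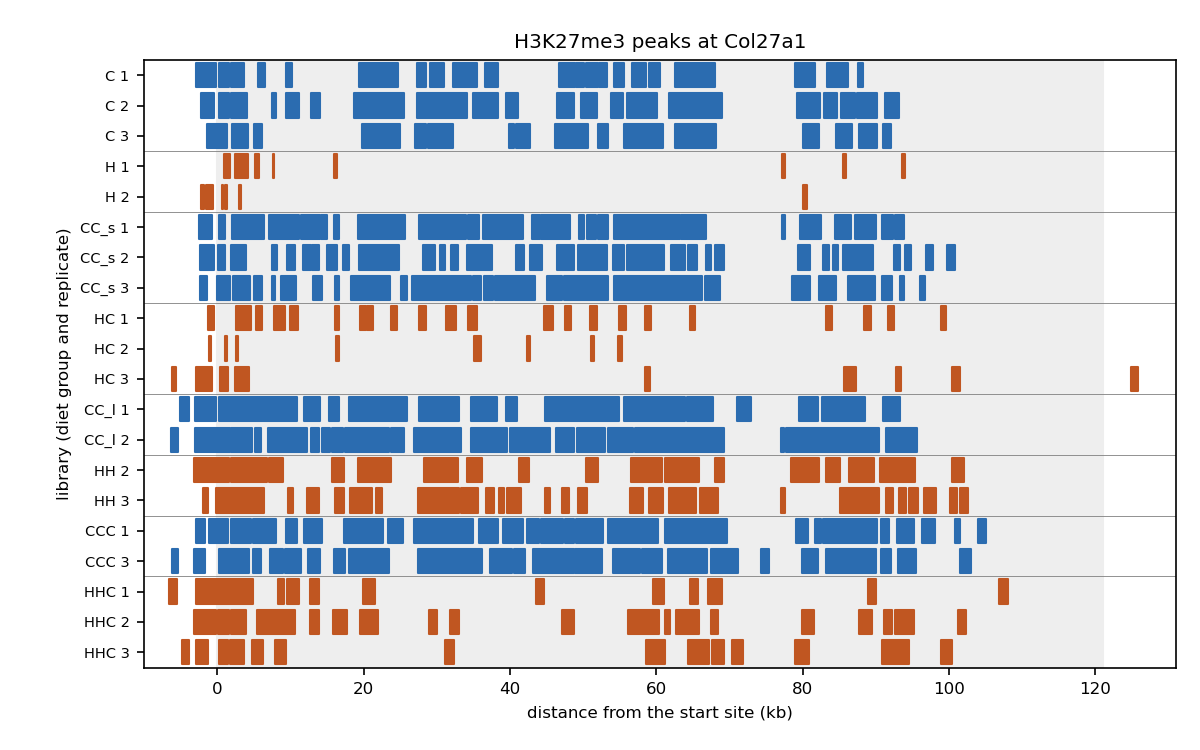
H3K27me3 peaks (bars) of each of 20 libraries by distance from the Col27a1 start site in kb (horizontal axis), ordered by diet group, blue for chow controls and orange for groups with HFD, on the gene in grey. Peaks fill much of the first 100 kb in chow libraries and are few in H and short in HC, where replicate 1 still had 21, with a mean cover between 20 and 40 kb of 0% in H and 10.9% in HC.

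The Col27a1 promoter carried both H3K27me3 and H3K4me3. H3K27me3 covered 84.5%, 72.7% and 83.2% of it in C and 45.1% and 19% in H, a difference of -48 points (SE 12.6, limma adjusted p = 0.0331). The call was lost without any 1 of these 5 libraries (limma adjusted p = 0.0634 to 0.336), on the log2 scale (0.0832) and with 500 bp windows (1), and H3K27me3 covered 71.1% to 100% in every library of the longer cohort. H3K4me3 covered 30.4%, 48% and 59% in C and 0% in H, a difference of -45.8 points (SE 10.1, limma adjusted p = 0.0102) that was lost without C replicate 3 (0.0505), with equal peak numbers and with the upper 50% of peaks (1 in both). All CC_s libraries were at 0% as well, so that the chow groups CC_s and C differed by the same -45.8 points (limma adjusted p = 0.0327), CC_s libraries covered 16.4 to 38.1 Mb for this mark, and CC_s mice had moved to another chow product in the weight loss period. The part of either was not tested. In HC H3K4me3 covered 16.8%, 8.62% and 51.0%, and in the longer cohort it covered 60.2% to 100% in every library.

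Col4a1 and Col4a2 encode the chains of the common type IV network of basement membranes. Their starts lie 21 bp apart on opposite strands of chromosome 8, so they share nearly all of 1 promoter and count as 1 observation. H3K4me3 covered 94.3% to 100% of the Col4a1 promoter in C and the longer cohort, and 31.6% to 100% in H, CC_s and HC. H3K27ac covered 88.2%, 100% and 79.3% in C and 54.9%, 5.30% and 24.6% in H. It covered 72.9% and 100% in CC_s and 36.6%, 36.3% and 33.9% in HC, and 100% in all CC_l and HH libraries, with 100% and 43.6% in CCC and 75.2%, 100% and 92.3% in HHC. H and HC lie below their controls without overlap, and the longer cohort shows no such gap. The difference in H was -60.9 points at Col4a1 (SE 14.2, limma adjusted p = 0.0293) and -61.1 at Col4a2 (SE 14.1, limma adjusted p = 0.0289). Both were lost without any 1 C library or without H replicate 2 or 3 (limma adjusted p = 0.0639 to 0.178), with the upper 50% of peaks (0.0685 and 0.068) and with 500 bp windows (0.212 and 0.221). H3K27ac covered 17% to 29.5% of the Col4a1 body in C and 3.21% to 9.82% in H, which was not called.

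H3K27me3 at the Col4a1 and Col4a2 promoter was not found in C or CC_s and covered 8.77% and 10.3% of the Col4a1 window in H. It covered 0%, 0% and 16.2% in HC, 58.5% and 0% in CC_l, 71.7% and 22.2% in HH, 0% in both CCC libraries and 78.6%, 29.5% and 0% in HHC. No difference was called by limma. Col4a3 and Col4a4, whose starts lie 127 bp apart, were marked by H3K4me3 in 9 of 21 and by H3K27me3 in 11 of 20 libraries. Col4a5 and Col4a6, 1309 bp apart on the X chromosome, were marked by H3K4me3 in 11 of 21, and by H3K27me3 in 1 of 20.

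Col15a1 and Col18a1 encode collagens that tie basement membranes to the matrix around them, and the end of the Col18a1 chain is released as endostatin. Col15a1 had H3K27ac in all 21 libraries. It covered 15.3%, 22.9% and 21.9% of the promoter windows in C, 11.3%, 4.45% and 8.60% in H, 14% and 22.1% in CC_s and 7.09%, 8.02% and 7.72% in HC, and 12.1% to 47.5% in the longer cohort. H and HC lie below their controls without overlap, but neither was called. The differences were -11.9 points in H and -10.4 in HC, against medians over all genes of -14.1 and -3.48. H libraries also covered less of the genome for this mark than C libraries. At Col18a1 (chr10:77052178-77166548) H3K4me3 covered 27.6%, 29.3% and 27.8% in C and 0%, 11.3% and 0% in H, a difference of -24.5 points (SE 7.85, limma adjusted p = 0.0436). This call was lost without any 1 C library or without H replicate 1 or 3 (limma adjusted p = 0.0749 to 0.176), with equal peak numbers (0.0575) and with every gene covered in 1 library tested (0.0502). In the longer cohort H3K4me3 at Col18a1 covered 13.4% to 60.8%, and HH (53.9% and 38.6%) overlapped CC_l (13.4% and 38.8%).

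The chains of type VI collagen, the beaded filament around adipocytes, were led by Col6a1, Col6a2 and Col6a3, and the end of the Col6a3 chain is cleaved off as endotrophin. H3K4me3 covered 0%, 31.3% and 41.6% of the Col6a1 promoter in C, 29.5%, 33.2% and 0% in H, 0%, 0% and 32.1% in CC_s and 0% in all HC libraries. It covered 45.9% and 69.8% in CC_l, 70.2% and 100% in HH, 45.4% and 63.1% in CCC and 71.8%, 81.6% and 84% in HHC. HH and HHC lie above their controls without overlap at Col6a1, yet neither was called. At Col6a2 HH covered 67% and 65.1% against 29.7% and 53% in CC_l, and at Col6a3 64.5% and 64.2% against 22.3% and 53.4%. In HHC the Col6a2 values (41.6%, 55.3% and 45.8%) lie below those of CCC (57.7% and 58.2%), and Col6a3 (50.7%, 48.1% and 61.6%) overlaps CCC (44.3% and 54.6%), so the 3 chains did not share a direction after weight loss. None of these was called. H3K27me3 at Col6a4, another chain of the type, covered 29.5% and 38.7% in CC_l and 0% in both HH libraries, a loss by presence.

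Col16a1 (chr4:130047840-130099283), a chain that sits on the surface of fibrils and basement membranes, had H3K27ac in mice with a long HFD history. H3K27ac covered 0% of its promoter in all 9 chow libraries and all 3 H libraries and at most 17% in HC, where only replicate 3 had a peak. The 3 HH libraries reached 49.5%, 52.4% and 61.9%, and those of HHC 27.7%, 45.6% and 54.7%. HH and HHC lie above every other library. The differences were 54.6 points in HH (SE 8.93, limma adjusted p = 0.0125) and 42.7 in HHC (SE 8.93, limma adjusted p = 0.0109). The call in HH was lost without CC_l replicate 1 (limma adjusted p = 0.135), with the upper 50% of peaks (0.933) and on the log2 scale (0.241). That in HHC was lost without CCC replicate 3 (limma adjusted p = 0.0704), with the upper 50% of peaks (0.388), with covered length as a covariate (0.0618), on the log2 scale (0.113) and with 500 bp windows (0.0813). The H3K27ac library of CCC replicate 3 stands apart, with 20.9 Mb covered and 17.7% of all promoters marked against 94.3 Mb and 50.8% in the other CCC library, and with the covariate the calls over all genes went from 756 to 65. H3K27ac marked 4 to 6 of 8 macrophage promoters in HH against 2 in CC_l, and 3 to 8 in HHC against 1 to 4 in CCC. It marked 2 to 6 of 8 stromal progenitor promoters in HH against 2 to 4, and 3 to 6 in HHC against 1 to 4. Of 6 endothelial promoters it marked 1 to 4 in HH against 0 to 1, and 1 to 4 in HHC against 0, and of 8 adipocyte promoters 5 to 8 in HH and 6 to 8 in HHC against 8 in both controls. The part of these cell types in the Col16a1 result was not tested.

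H3K4me1 at the Col16a1 promoter covered 19.2%, 53.6% and 100% in HHC against 0% and 4.6% in CCC, a difference of 55.3 points (SE 18.5, limma adjusted p = 0.0493) that was lost without CCC replicate 1 or 3 or HHC replicate 3 (0.127 to 0.215) and under 6 further alternatives (0.0624 to 0.16). In HH it covered 8.50%, 53.4% and 79.1% against 41.7% and 0% in CC_l, which overlap. H3K4me3 at the promoter covered 77.3% and 92.3% in HH against 0% and 43.3% in CC_l. In the Col16a1 body, H3K4me3 covered 5.62% and 6.88% in HH against 0% in both CC_l libraries, a difference of 6.25 points (SE 1.03, limma adjusted p = 0.00254), which became -1.66 with groups from the treatment field and was lost with equal peak numbers (0.323) and the upper 50% of peaks (0.311). It covered 0%, 0% and 3.85% in HHC against 5.40% and 3.57% in CCC, a difference of -3.20 points (SE 0.938, limma adjusted p = 0.0254) that changed sign to 1.28 when the same number of peaks was kept per library. This last call was also lost without CCC replicate 1 or HHC replicate 1 or 2 (limma adjusted p = 0.059 to 0.201), with equal peak numbers (0.406), the upper 50% of peaks (0.384), on the log2 scale (0.0609), with groups from the treatment field (0.107) and with promoter windows counted as body (0.232). CCC itself lay 4.48 points above CC_l (limma adjusted p = 0.0411), so the H3K4me3 cover of this gene body also differed between chow groups of different age.

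Col14a1, a collagen that binds to fibrils, carried H3K27me3 in all 20 libraries and H3K4me3 mostly in the longer cohort. H3K4me3 covered at most 33.2% of its promoter windows in the shorter cohort, 38.2% and 30.5% in CC_l, 82.1% and 84.3% in HH, 71.6% and 49.4% in CCC and 72.3%, 88.6% and 93.5% in HHC. HH and HHC lie above their controls without overlap. HH differed by 48.9 points (SE 10.6, limma adjusted p = 0.0246), a call that was lost without any 1 of the 4 libraries (0.1 to 0.143), on the log2 scale and with 500 bp windows (1 in both), and became -21.3 points with groups from the treatment field. In HHC, 0.334%, 0.436% and 0.858% of the Col14a1 body was covered by H3K4me3, against 0% in every other library, a difference of 0.543 points (SE 0.132, limma adjusted p = 0.00979) that was lost without CCC replicate 1 or 3 (0.0524 and 0.0566). The Col14a1 body passed the filter of 3 covered libraries through HHC alone, so this p-value is no independent support. Without any 1 HHC library it fell below that filter and was not tested. H3K4me3 marked 7 or 8 of 8 macrophage promoters in HH against 3 in CC_l, and 6 or 7 of 8 stromal progenitor promoters against 4 or 5, and their part in the Col14a1 result was not tested.

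Col12a1, a fibril-associated chain of tendon and other dense tissue, had H3K4me3 at 47.7%, 46.1% and 91.6% of its promoter windows in C and 0%, 22.8% and 0% in H. The difference was -54.2 points (SE 17.8, limma adjusted p = 0.0467), and it was lost without any 1 C library or without H replicate 1 or 3 (0.056 to 0.19) and under 6 alternatives beside the covariate (0.0528 to 0.37). In its body, H3K4me3 covered 1.59%, 2.67% and 1.09% in HHC against 4.85% and 3.81% in CCC, a difference of -2.54 points (SE 0.805, limma adjusted p = 0.0353) that was lost without CCC replicate 1 or 3 or HHC replicate 1 or 3 (0.0559 to 0.199). The body call was also lost with groups from the treatment field (limma adjusted p = 0.178), the upper 50% of peaks (0.121), every gene covered in 1 library tested (0.0537), the log2 scale (0.23) and promoter windows counted as body (0.102). H3K27me3 at Col12a1 was seen mostly in the longer cohort, at 100% and 27.1% in CC_l, 99.6% and 91.5% in HH, 81.9% and 0% in CCC and 83.8%, 55.5% and 37% in HHC.

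Col8a1 encodes a short-chain collagen of vessel walls and carried H3K27me3 in most libraries. H3K27me3 covered 94.7%, 61.7% and 75.8% of its promoter in C and 0% in both H libraries, a difference of -77.4 points (SE 17.4, limma adjusted p = 0.0207). It covered 48.3%, 83.3% and 85.8% in CC_s and 28.3%, 0% and 24.1% in HC, a difference of -55.0 points (SE 15.6, limma adjusted p = 0.0458). Neither pair overlaps. In the longer cohort it covered 71.4% to 100% in CC_l, HH and CCC, and 78.7%, 100% and 32.9% in HHC. The call in H was lost without H replicate 1 or 2 or C replicate 1 or 3 (limma adjusted p = 0.0516 to 0.169), and that in HC without CC_s replicate 2 or 3 or HC replicate 2 or 3 (0.0758 to 0.232), on the log2 scale (0.0764) and with every gene covered in 1 library tested (0.0824). Col8a2, its partner chain, had H3K4me3 at 21.1%, 32.8% and 57.8% in HHC and 0% in CCC, and also at 18.4% and 21.3% in C replicates 1 and 2.

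Col26a1 and the membrane-spanning collagen Col13a1 carried H3K27me3 in all 20 libraries and differed by how much of the promoter was covered. At Col26a1 it covered 98.9%, 98.7% and 100% in C against 11.6% and 61% in H (difference -62.9 points, SE 15.7, limma adjusted p = 0.0274), and 87.8%, 100% and 100% in CC_s against 81.2%, 12% and 43.9% in HC (-50.2 points, SE 14, limma adjusted p = 0.0427). In the longer cohort every library had 88.8% or more. The Col26a1 call in H was lost without any 1 of its 5 libraries (limma adjusted p = 0.0647 to 0.438), and that in HC without any 1 CC_s library or HC replicate 2 or 3 (0.0719 to 0.22). Both were also lost on the log2 scale (limma adjusted p = 0.0818 and 0.124) and with every gene covered in 1 library tested (0.0511 and 0.0789). At Col13a1 H3K27me3 covered 78.5%, 100% and 91% in CC_s against 47.5%, 37.2% and 47.7% in HC, a difference of -45.7 points (SE 10.4, limma adjusted p = 0.0195). This was lost without CC_s replicate 2 or 3 or HC replicate 2 (0.0738 to 0.0818), on the log2 scale (0.0629) and with 500 bp windows (0.101).

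Type IX collagen coats cartilage fibrils. At Col9a2, H3K4me1 covered 58.7%, 0% and 44.9% of the promoter in HHC against 0% in both CCC libraries, a difference of 34.5 points (SE 10.6, limma adjusted p = 0.0352) that was lost without CCC replicate 1 or 3 (0.125 and 0.117) and on the log2 scale (0.124). HHC replicate 2 was at 0% and so overlaps CCC. The Col9a2 promoter had H3K4me1 in 1 HH and 2 HHC libraries only. It passed the filter of 3 covered libraries through HFD groups alone, so this p-value is no independent support. Without HHC replicate 1 or 3 it fell below that filter and was not tested. At Col9a3, H3K27me3 covered 0%, 8.39% and 0% of the body in HHC against 18.4% and 11.5% in CCC, a difference of -12.1 points (SE 2.65, limma adjusted p = 0.0251), with no overlap, lost without CCC replicate 1 or HHC replicate 1 or 3 (0.0557 to 0.199), with equal peak numbers (0.141), the upper 50% of peaks (0.22), every gene covered in 1 library tested (0.054) and the log2 scale (0.12). Its promoter lost H3K27me3 by presence, from only 0.88% and 13.7% cover in CCC. Col22a1, a chain of tissue junctions, had H3K4me3 at 21.3% and 19.4% of its promoter windows in CCC and 0% in HHC, a difference of -20.3 points (SE 4.97, limma adjusted p = 0.0229) that was lost without CCC replicate 1 or 3 or HHC replicate 3 (0.054 to 0.167) and with groups from the treatment field (0.297). H3K27me3 at Col23a1, a membrane-spanning chain, covered 21.3% and 34.5% in HH against 0% in CC_l and was found in 2 of 3 HHC libraries as well.

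Collagen needs enzymes that modify, process and cross-link it, and these genes were marked unlike the collagens themselves. Over 23 genes of collagen modification and processing, H3K4me3 marked 85.1% of promoters on average, against 45.5% for the chains. In H, H3K4me3 cover was lower at 4 of 22 tested: the difference was -33.7 points at Ppib, -39.1 at P3h2 and -45.1 at P3h4, all of the prolyl 3-hydroxylation machinery, and -51 at Adamts2, which removes the N-propeptide (limma adjusted p = 0.0214, 0.0481, 0.0214 and 0.0174), while 14.9% of all genes were called. With covered length as a covariate, H3K4me3 promoter calls in H over all genes went from 2182 to 2. In HHC, H3K4me1 was higher at 3 of 16 promoters (by 50.2 points at Mia3, 62 at Pcolce and 35.1 at P3h4) and lower at Adamts3, with a difference of -48.6 points (limma adjusted p = 0.00035, 0.00317, 0.0403 and 0.00161), with 14.8% of all genes called. H3K27ac was higher at the P3h3 promoter by 36.4 points. Body cover was higher at P3h4 (H3K4me3, 39.5 points), Colgalt1 (H3K27ac, 17), Mia3 (H3K4me1, 3.54) and Plod1 (H3K4me3, 9.15 in HH and 4.32 in HHC). All had a limma adjusted p of 0.0488 or less. Over all genes 5.98% of H3K27ac promoters were called in HHC, where the median difference was 22.5 points. Of all bodies, 21.8% (H3K4me3), 12.7% (H3K27ac) and 21.4% (H3K4me1) were called in HHC, and 5.73% (H3K4me3) in HH. P4ha3, a prolyl 4-hydroxylase subunit, had H3K27me3 in all 20 libraries and H3K4me3 in 0 of 21.

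Among the 5 lysyl oxidases, which cross-link collagen, H3K4me3 was lower in H at 3 of 5: the differences were -83.6 points at Loxl1 (SE 12.9, limma adjusted p = 0.00382), -44.2 at Lox (SE 14.6, adjusted p = 0.0481) and -17.8 at Loxl4 (SE 4.92, adjusted p = 0.0258), against 14.9% of all genes called and 2 genes of all with covered length as a covariate. In HHC Loxl3 was higher for promoter H3K27ac by 60.6 points (SE 13.7, limma adjusted p = 0.0169) and for body H3K4me3 by 9.77 points (SE 2.94, adjusted p = 0.0286). Of 10 collagen receptors, Itga2 and Itgb1, which pair as an integrin, were called, both in HHC. Itga2 was higher for promoter H3K27ac by 43.4 points, for body H3K27ac by 8.59 and for body H3K4me1 by 8.05 (limma adjusted p = 0.0213, 0.0397 and 0.0116). For H3K4me1 Itgb1 differed by -29.3 points at the promoter and by 13 points in the body (limma adjusted p = 0.0175 and 0.0483). Over all genes 5.98% of H3K27ac and 14.8% of H3K4me1 promoters and 12.7% and 21.4% of bodies were called in HHC. For body H3K4me3 the share was 21.8%. The median HHC difference in promoter H3K27ac over all genes was 22.5 points, and CCC replicate 3 covered only 20.9 Mb for this mark. With covered length as a covariate, H3K27ac promoter calls in HHC over all genes went from 756 to 65. Promoter H3K4me3 cover was also called higher in HHC at cell type markers, where 3.72% of all genes were called. These were Ptprc, Lyz2 and Adgre1 of macrophages, Cd34 and Ly6a of stromal progenitors, Pecam1 of endothelial and Pdgfrb of mural cells. The differences were 41.2 to 71.7 points (limma adjusted p = 0.00198 to 0.0495). The part of these cell types in the results was not tested.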

How the data were processed

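CUT&Tag libraries (84) of 4 histone marks were analysed as peak lists. Per the labels, the authors trimmed reads with Trim Galore 0.6.6, aligned them to GRCm38 with Bowtie2 2.4.4, handled files with SAMtools 1.13 and bedtools 2.30, and called peaks per library with SEACR 1.3 in stringent mode at a threshold of 0.01. The deposited columns hold summed and maximal signal per peak, unscaled whole numbers, of which the maximal and summed signal served only to rank peaks in alternatives. Peaks follow coverage, so libraries of lower depth or weaker enrichment give fewer and narrower ones, and depth per library was unknown.

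Peaks were intersected with promoter windows (2000 bp either side of 41438 start sites) and gene bodies of GENCODE vM21 in Python 3.11.15 with pandas 2.3.3 and numpy 2.4.6. Cover was tested with limma 3.58.1 in R 4.3.3: 8 group means per mark in 1 fit, genes covered in at least 3 libraries, eBayes with trend, Benjamini-Hochberg adjustment over all genes tested, threshold 0.05. The steps were tested on simulated data. Library pairs with identical peaks numbered 0. Named genes were the 11 chains best known from fat (Col1a1, Col1a2, Col3a1, Col5a1, Col4a1, Col4a2, Col15a1, Col18a1, Col6a1, Col6a2 and Col6a3), collagens called by presence or by limma in a diet comparison, and the called genes of the other lists, with the rest as counts. Members and lists were chosen with earlier results of these data known. Replicate numbers were not treated as pairs: over 36 pairs of same-numbered libraries the correlation of deviations exceeded 0.1 in 6. Alternatives were other windows, overlaps, filters, scales, peak numbers, groupings, a covered-length covariate, a replicate block and leaving out each library. For limma they were run on the 4 diet comparisons, and not on averages over the cohorts or differences between them. For single genes they were examined at collagens only, and not in the other lists.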

Additional observations from a re-analysis of the deposited data

Results flagged for a closer look

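Differences with diet that differed between the cohorts were found at 3 collagen gene bodies, each by limma's test of the difference between the cohorts' effects. At Col1a1 the weight-loss difference in H3K4me1 cover was 5.44 points larger in the longer than in the shorter cohort (SE 0.74, adjusted p = 0.000468), and that in H3K4me3 cover 3.41 points larger (SE 0.766, adjusted p = 0.0169). In the shorter cohort all CC_s and HC libraries were at 0% for both. For H3K4me1 the Col1a1 body passed the filter of 3 covered libraries through HHC alone, so its p-value is no independent support. At Col16a1 the obese difference in H3K4me3 cover was 6.25 points larger in the longer cohort (SE 1.33, adjusted p = 0.0254). C and H libraries, of the shorter cohort, were all at 0% there. Libraries covered 20.9 to 133 Mb of the genome in the longer and 8.54 to 64.1 Mb in the shorter cohort, and the part of this in the 3 results was not tested.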

How the results depend on the processing

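Of the differences and call counts over the collagens, 521 recomputed values stayed within the spread or within 1.5 times the count and 15 did not. With groups from the treatment field, the H3K4me3 width difference of obese mice moved from -0.10 to -0.48 (log2), and Col14a1 promoter H3K4me3 (-21.3 points, adjusted p = 1), Col16a1 body H3K4me3 (-1.66) and Col1a1 body H3K4me3 (-1.08) in HH reversed. Col16a1 body H3K4me3 in HHC turned to 1.28 both with equal peak numbers and with the upper 50% of peaks. Promoter calls in obese mice (13) fell to 2 with covered length as a covariate and to 7 on a log2 scale, and those after weight loss (8) to 2, to 2, and to 5 with 500 bp windows. Body calls in obese mice (3) became 5 with equal peak numbers, 1 with the covariate and 8 on the log2 scale, and those after weight loss (9) became 4 on the log2 scale. Leaving out 1 library gave 9 to 16, 5 to 15, 2 to 4 and 6 to 13 calls. The extremes after weight loss were 15 without H3K4me3 HHC replicate 1, 14 without H3K27me3 HHC replicate 2, and 5 without H3K27me3 CC_s replicate 2, CC_s replicate 3 or HC replicate 2. A replicate block gave 11, 6, 2 and 8 calls, and the numbers do not pair the libraries (correlations from -0.425 to 0.173). H3K4me1 widths in obese mice could not be given with equal or upper peaks, since 1 library then had no marked collagen. Depth limits every absent peak.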

Other observations

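A stretch 9 to 6.5 kb before the Col1a1 start (chr11:94927225-94929724, GRCm38), chosen after its peaks were seen and without a protein-coding gene, had an H3K4me1 peak in all 22 libraries. H3K27ac was found there in 10 of 21, H3K4me3 in 8 of 21 and H3K27me3 in 2 of 20 libraries, both of HHC. Of the 8 libraries with H3K4me3, 1 belonged to HC and 7 to the longer cohort. The Col1a1 promoter itself had H3K4me1 in 15 of 22 libraries.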
